A study of Drosophila melanogaster with 21 samples.

Results

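Neuronal knockdown of *Cbp20* and *Fsn* together was compared, gene by gene, with what the knockdown of each gene alone added up to. The comparison used 15 of the 21 RNA-seq libraries of the series, 3 from each of 5 groups of whole heads of adult female *Drosophila melanogaster*, chosen as the libraries that enter this sum. *Cbp20* is the fly homolog of human *NCBP2* and *Fsn* that of *FBXO45*, both in the 3q29 deletion region. All flies, controls included, carried the Elav-GAL4 driver, which is active in neurons, and were reared at 25 °C. Cbp20/Fsn flies (y1 w1118,Elav-GAL4/w1118) had 1 copy of each RNAi transgene, P{KK109448} for *Cbp20* and P{GD11383} for *Fsn*. Cbp20 flies had P{KK109448} alone in the KK background (Elav-GAL4/y1 w1118), and Fsn flies had P{GD11383} alone in the GD background (w1118,Elav-GAL4/w1118;;P{GD11383}/+). Control GD (w1118,Elav-GAL4/w1118) and Control KK (w1118,Elav-GAL4/y1 w1118) had no RNAi transgene. Each gene was targeted with 1 RNAi line, the labels place the pair in the KK background although its other chromosome set comes from the GD line, and flies were frozen in groups of 40 to 50, so the libraries are pools of heads.

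Cbp20 is the small subunit of the nuclear cap-binding complex, which with Cbp80 holds the cap of new RNA polymerase II transcripts and serves splicing, export and, through Ars2, small RNA processing. Fsn is the F-box subunit of the Highwire ubiquitin ligase, which limits synaptic growth by holding down the kinase Wallenda upstream of JNK. If the knockdowns act independently, their log2 changes add, and the pair should change by the sum. The departure from the sum was taken as the change of Cbp20/Fsn against Control KK, less the change of Cbp20 against Control KK and that of Fsn against Control GD. Control KK cancels in this expression, so the departure equals Cbp20/Fsn minus Cbp20 minus Fsn plus Control GD on the log2 scale, and a gene can leave the sum through any of those 4 groups.

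Library totals ran from 18831749 to 28759171 counts with a median of 22414634, so that 3 counts, taken as the detection floor, correspond to 0.104 to 0.159 CPM (TMM-normalised counts scaled to a common library size). All 21 photoreceptor genes and all 16 pan-neuronal genes of the marker lists passed the low-count filter. No gene of either list was called, against 2.60% of all genes tested. Values below are CPM of the 3 replicates in the order 1, 2 and 3, and a gene was called when its departure exceeded 1 on the log2 scale in either direction at a Benjamini-Hochberg false discovery rate (FDR) below 0.05 in edgeR's quasi-likelihood test over 10558 genes. The study describes the replicates as biological, but the p-values measure only the spread among these libraries.

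Both targeted transcripts were lowered in the pair about as much as in the single knockdowns. *Cbp20* had 5.95, 6.01 and 6.59 CPM in Cbp20/Fsn flies, against 5.08, 5.63 and 5.19 in Cbp20, 19.1, 15.7 and 15.1 in Fsn, 13.9, 12.6 and 13.4 in Control GD and 14.7, 14.3 and 14.5 in Control KK flies. The log2 change of *Cbp20* was -1.23 in Cbp20/Fsn and -1.45 in Cbp20 flies against Control KK (edgeR FDR = 2e-08 and 4.7e-09). *Fsn* had 18.3, 16.3 and 20.2 CPM in Cbp20/Fsn flies, against 25.95, 27.9 and 27.5 in Cbp20, 19.9, 17.03 and 19.4 in Fsn, 26.5, 29.7 and 27.04 in Control GD and 26.7, 24.03 and 28.3 in Control KK flies. The log2 change of *Fsn* was -0.60 in Cbp20/Fsn and -0.56 in Fsn flies against Control GD (edgeR FDR = 3.8e-05 and 7.2e-05). *Fsn* libraries with the transgene did not overlap with those without it, and neither did those of *Cbp20*. The departures of the 2 targets were -0.11 ± 0.13 for *Cbp20* and -0.01 ± 0.11 for *Fsn* (SE, edgeR FDR = 0.7 and 0.98). In whole heads these values blend neurons with tissue that the driver does not reach.

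The departure was called for 274 genes, 2.60% of those tested, of which 175 (1.66%) lay above the sum and 99 (0.938%) below it. The median departure over all genes tested was 0.02 on the log2 scale, that of the genes above was 2.40 and that of the genes below -1.74. The highest of the 5 group means reached 5 CPM in 95 of the genes above and 65 of those below. The group or groups that stood apart were found by sorting the 5 group means of log2(CPM + 0.5) and splitting them at the widest gap. For genes above the sum, Cbp20/Fsn was high alone in 50, Cbp20 low alone in 33, Cbp20 and Control KK were low together in 31, Control GD was high alone in 24 and Fsn low alone in 10. For genes below the sum, Cbp20 was high alone in 37, Cbp20 and Control KK were high together in 20, Control GD was low alone in 13, Fsn high alone in 10 and Cbp20/Fsn low alone in only 3. The pair itself was therefore the group apart in 53 of 274 genes, and the libraries on the 2 sides of the gap did not overlap in 188 of the 274.

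**Figure D1:**
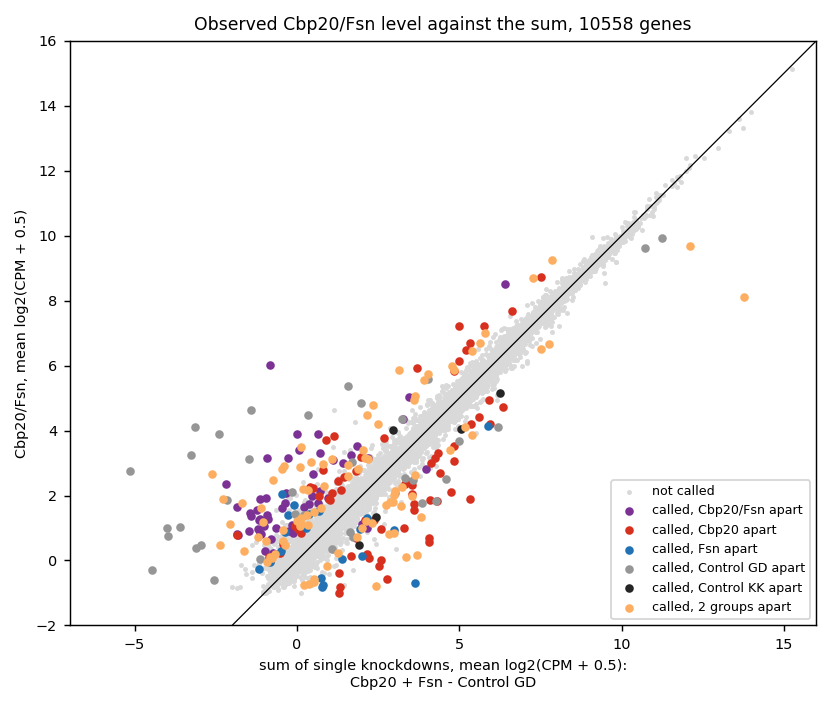
Each point is 1 of 10558 genes, with the sum of the single knockdowns on the x axis (Cbp20 + Fsn - Control GD) and the level in Cbp20/Fsn on the y axis, both as mean log2(CPM + 0.5) of 3 libraries a group. The line marks the sum, and coloured points are the 274 called genes by the group that stood apart, 175 above and 99 below.

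**Figure D2:**
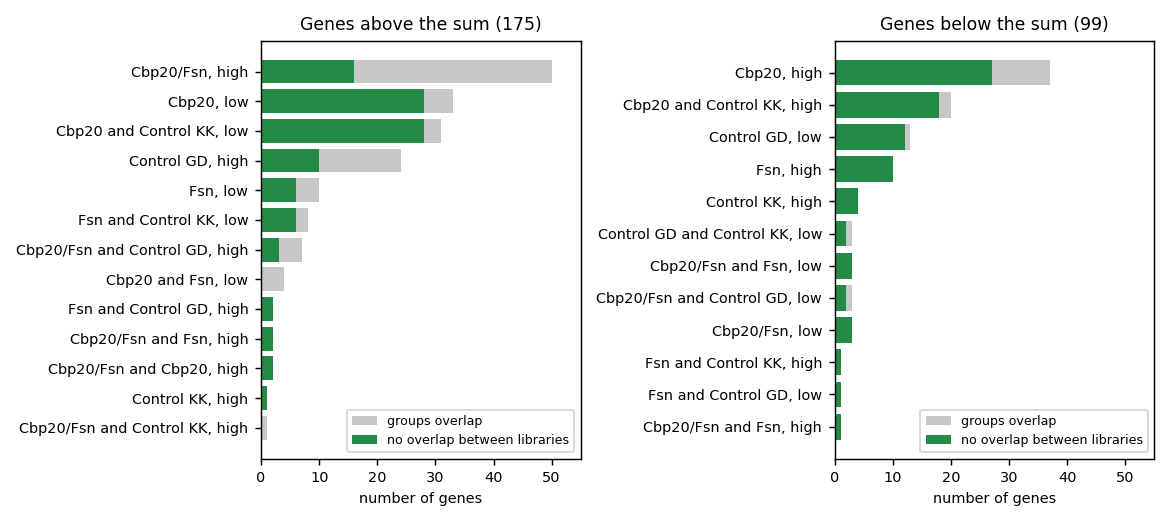
Bars count the called genes by the group or pair of groups that stood apart and its direction, for 175 genes above the sum on the left and 99 below it on the right. The green part counts genes whose libraries did not overlap across the gap, 16 of the 50 with Cbp20/Fsn high and 27 of the 37 with Cbp20 high.

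Since the pair carries both backgrounds, the departure was also computed with Cbp20/Fsn set against Control GD, which puts Control KK in the place of Control GD in the sum. In that form 237 genes were called (2.24%). Of the 175 genes above the sum, 54 were called above it in both forms, 119 were not called with Control GD and 2 were called on the other side, and of the 99 below, 43 were called in both forms, 55 were not called and 1 was called on the other side. Genes with Cbp20 and Control KK low together kept the call in 0 of 31 cases and genes with Control GD high in 0 of 24. With Cbp20/Fsn high 25 of 50 kept it, with Cbp20 high 25 of 37, and with Fsn high 10 of 10. The 2 controls are different fly stocks, so background and departure cannot be told apart for a gene that is called with 1 control only.

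**Figure D3:**
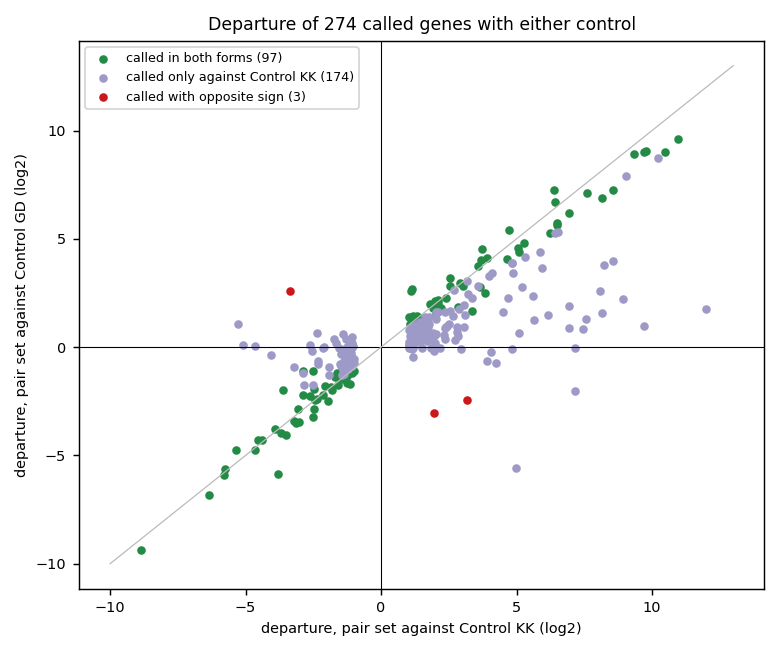
The departure of the 274 called genes is plotted with the pair set against Control KK on the x axis and against Control GD on the y axis, both in log2 units. The 97 genes called in both forms lie along the grey diagonal, 174 were called only on the x axis and many of these lie near 0 on the y axis, and 3 changed side.

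Among the 50 genes with Cbp20/Fsn high alone, 16 had no overlap between the pair and the other 4 groups. *Cyp6a17* had 14.2, 14.5 and 13.998 CPM in Cbp20/Fsn flies, against 1.75, 1.23 and 1.81 in Cbp20, 1.32, 1.31 and 1.17 in Fsn, 1.98, 1.83 and 1.72 in Control GD and 1.88, 2.69 and 2.26 in Control KK flies. *Cyp6a17*, a cytochrome P450 linked to temperature preference in flies, was the clearest of them, with 3 near-equal libraries in the pair and none above 2.69 CPM elsewhere in these groups. Its departure was 3.70 ± 0.22 (SE, edgeR FDR = 2.1e-09), and 4.004 with Control GD (edgeR FDR = 3.6e-10). *CG33177* had 15.8, 14.4 and 13.4 CPM in Cbp20/Fsn flies, against 1.58, 1.13 and 0.588 in Cbp20, 0.178, 0.3396 and 0.501 in Fsn, 1.398, 0.634 and 0.486 in Control GD and 0.626, 0.547 and 0.584 in Control KK flies. Its departure was 5.04 ± 0.51 (edgeR FDR = 4.5e-06). The long non-coding RNA *lncRNA:CR44661* had 7.77, 9.28 and 8.35 CPM in Cbp20/Fsn flies and 0.1496 to 0.593 in the other 4 groups, with a departure of 4.71 ± 0.52 (edgeR FDR = 1.3e-05). *Cyp6a17*, *CG33177* and *lncRNA:CR44661* were called in each of the 12 fits that left out 1 library.

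*sordd2* was more abundant in the pair than *Cyp6a17*, *CG33177* and *lncRNA:CR44661* and had almost no reads in the other 4 groups. *sordd2* had 63.6, 63.4 and 65.9 CPM in Cbp20/Fsn flies, against 0.0438, 0 and 0.09798 in Cbp20, 0.0357, 0.146 and 0.167 in Fsn, 0.0902, 0.0373 and 0.1496 in Control GD and 0, 0 and 0.0778 in Control KK flies. Every Cbp20 and Control KK library held fewer than 3 counts, so the pair was at least 423-fold higher than Cbp20 and at least 461-fold higher than Control KK against the floor of 3 counts per library. Its fitted departure of 10.24 ± 2.52 (SE, edgeR FDR = 0.018) depends on counts of nearly 0 in the single knockdowns, and the call was lost with Control GD (edgeR FDR = 0.26) and without Control GD replicate 1 or 3. In Cbp20/dlg1 flies, the other pair in the series, *sordd2* had 23.5, 22.6 and 26.9 CPM. *CG33177* and *lncRNA:CR44661* were also high there, at 18.9, 19.5 and 15.4 and at 9.62, 11.05 and 8.91 CPM, whereas *Cyp6a17* had 2.395, 2.49 and 2.504 CPM. Flies with the knockdown of *dlg1* alone had 4.47, 1.01 and 7.18 CPM of *sordd2*, 3.14, 3.6996 and 4.14 of *CG33177* and 2.09, 1.74 and 2.29 of *lncRNA:CR44661*, below both pairs and above every Cbp20, Fsn and control library. *Cyp6a17* had 1.62, 1.79 and 1.397 CPM in dlg1 flies.

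Of the genes that were high in Cbp20/Fsn alone among the 5 groups and also high in Cbp20/dlg1, 4 lie on the X chromosome. They form adjacent pairs, with gaps of 941 and 10 bp between neighbours. In the BDGP6.54 annotation *lncRNA:CR44661* spans positions 15079956 to 15080425 and *CG33177* 15081367 to 15082369, and the pseudogene *CR44383* spans 15796477 to 15796897, next to *sordd2* at 15796908 to 15799162. *CR44383*, named after its values were seen, averaged 2.15 ± 0.3597 CPM in Cbp20/Fsn and 0.965 ± 0.139 in Cbp20/dlg1 flies, 0.266 ± 0.145 in dlg1 flies and at most 0.102 ± 0.05098 in the other 4 groups (SD, n = 3 each), and departed by 6.38 ± 1.29 (edgeR FDR = 0.0046). The stretch from the first to the last of them, bounded by these genes themselves, spans 719 kb. It held 76 tested genes and no call besides these 4, while 2.34% of tested genes were called over the whole X chromosome. The X chromosome also carries Elav-GAL4, and both pairs are listed with a y1 w1118,Elav-GAL4 chromosome, whereas Fsn and dlg1 flies and both controls are listed with w1118,Elav-GAL4. For Cbp20 flies both forms are listed and the sequenced one is not stated. The X chromosome of the driver stock and the double knockdown cannot be told apart for these genes. *Scp1*, a sarcoplasmic calcium-binding protein, averaged 365 ± 34.9 CPM in Cbp20/Fsn, 139.6 ± 17.6 in Cbp20, 72.3 ± 29.01 in Fsn, 113 ± 28.9 in Control GD and 83.1 ± 12.7 in Control KK flies (SD, n = 3 each). Its departure was 2.03 ± 0.34 (edgeR FDR = 0.00099), and *Dnaaf3*, a dynein axonemal assembly factor, averaged 3.72 ± 0.588 CPM in the pair and at most 0.323 ± 0.0418 in the other groups, with a departure of 3.66 ± 0.46 (edgeR FDR = 4.4e-05). *Scp1* and *Dnaaf3* were picked after their values were seen.

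**Figure D4:**
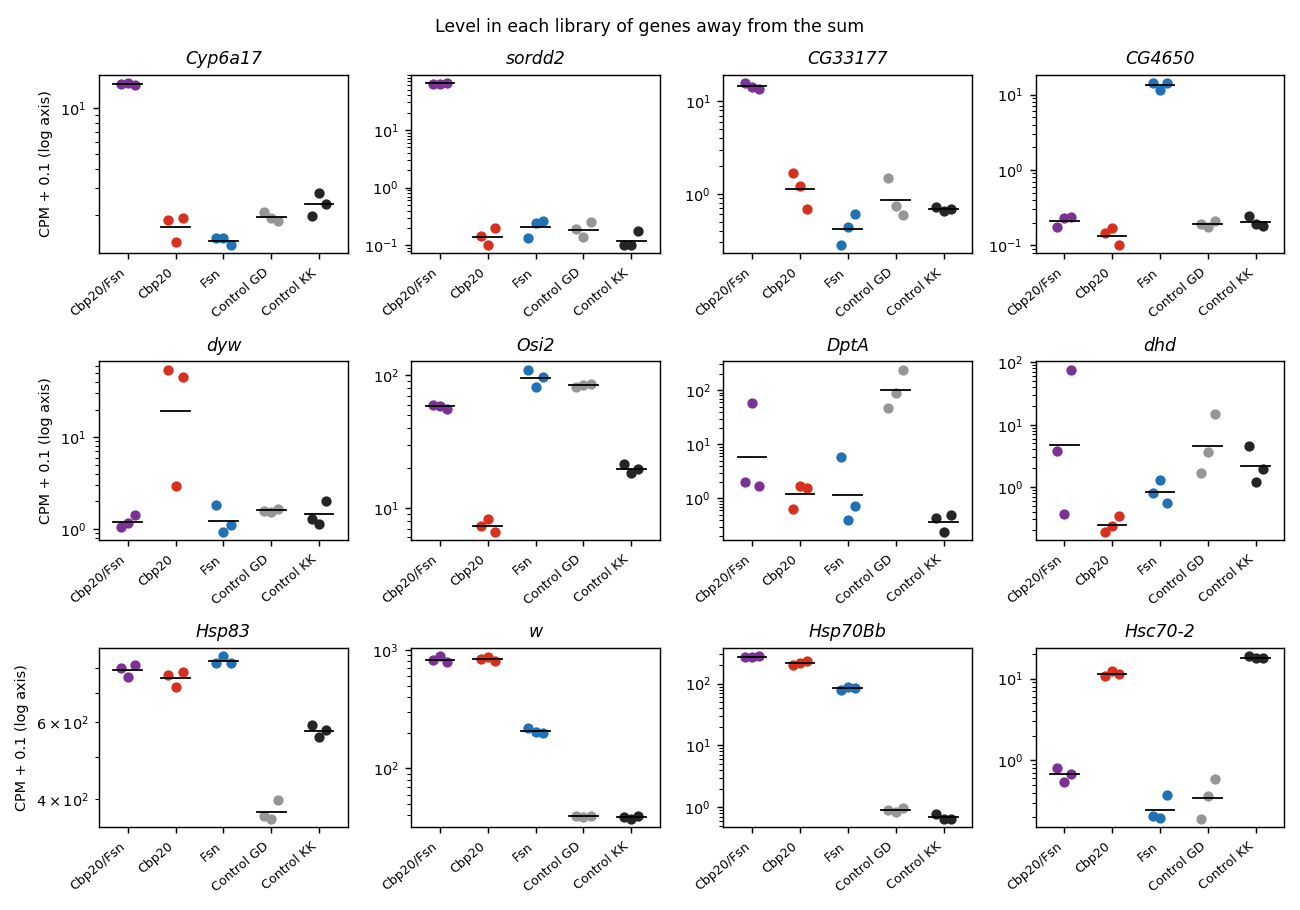
Each panel shows 1 gene as CPM + 0.1 on a log axis, with 1 point per library, the geometric mean as a line and the groups in the order Cbp20/Fsn, Cbp20, Fsn, Control GD and Control KK. *Cyp6a17* and *sordd2* stand apart in the pair, *CG4650* in Fsn, *Osi2* and *Hsc70-2* in Cbp20 with Control KK, and *Hsp83* in Control GD. *dhd* is highest in Cbp20/Fsn replicate 3, *DptA* is high in Control GD and in Cbp20/Fsn replicate 2, and *dyw* is high in Cbp20 replicates 1 and 3.

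The other 34 of these 50 genes overlapped with another group, and they included genes known from the female germline. The yolk protein receptor gene *yl*, the posterior determinant *osk*, the germline deubiquitinase *otu*, the oocyte RNA regulator *Marf1*, the egg-activation kinase subunit *gnu* and the maternal thioredoxin *dhd* were all called. *osk*, *otu*, *Marf1* and *gnu* were among the 34, while the widest gap for *yl* and *dhd* set Cbp20 and Fsn apart as low. *dhd* had 3.72, 0.265 and 76.9 CPM in Cbp20/Fsn flies, against 0.0875, 0.137 and 0.245 in Cbp20, 0.714, 1.21 and 0.445 in Fsn, 1.58, 3.54 and 14.8 in Control GD and 4.38, 1.09 and 1.87 in Control KK flies. The departure of *dhd* was 10.48 ± 2.27 (SE, edgeR FDR = 0.0077). *osk* had 2.64, 0.0884 and 16.5 CPM in Cbp20/Fsn flies, against 0.131, 0.103 and 0.147 in Cbp20, 0.321, 0.437 and 0.223 in Fsn, 0.451, 0.8202 and 4.49 in Control GD and 1.68, 0.228 and 0.545 in Control KK flies. *osk* lay above the sum by 8.16 ± 1.92 (edgeR FDR = 0.013). In both genes Cbp20/Fsn replicate 3 was above every control library, replicate 1 lay within the range of the control libraries and replicate 2 was below all of them. *Pxt*, a cyclooxygenase-like enzyme of the ovary, had 7.84, 0.0884 and 26.8 CPM in the pair and 0 to 3.67 elsewhere (departure 9.69 ± 1.98, edgeR FDR = 0.0048).

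*yl* had 2.899, 0.0884 and 25.02 CPM in Cbp20/Fsn flies, against 0.4104 to 4.94 in the 2 controls, so that replicate 3 alone stood above them. *otu* had 4.65, 0.353 and 12.01 CPM in the pair against 0.541 to 3.44 in the controls, *Marf1* 13.2, 1.77 and 36.2 against 2.23 to 6.13, *gnu* 3.27, 0.221 and 7.22 against 0.311 to 1.46 and the gene FBgn0267727, which has no symbol in the annotation, 15.6, 0.663 and 37.2 against 0.812 to 6.73. In these 4 genes replicates 1 and 3 of the pair both exceeded every control library. The departures of the 5 genes were 9.35 ± 2.19, 5.07 ± 1.21, 4.66 ± 0.93, 6.25 ± 1.34 and 6.48 ± 1.43 (edgeR FDR = 0.013, 0.015, 0.004, 0.0069 and 0.0085). The calls of *yl*, *osk* and *otu* were lost without Cbp20/Fsn replicate 3 and also without Control GD replicate 3, the highest control library for each. The small heat shock gene *Hsp27* followed the pattern with 6.32, 1.63 and 16.8 CPM in the pair (departure 3.02 ± 0.78, edgeR FDR = 0.025). Of the 50 genes, replicate 3 was above every library of the other groups in 49, replicate 1 in 43 and replicate 2 in 17. Without replicates 1 and 3, a fit chosen after the data were seen, 9 of the 50 remained called, and without replicate 3 alone 27 did.

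Counted over the lists, 7 of the 23 ovary germline genes tested lay above the sum and 0 below, with a median departure of 1.56, against 1.66% above and a median of 0.02 over all genes. These were *osk*, *yl*, *gnu*, *exu*, *krimp*, *spn-E* and *aub*, the last 3 of the piRNA pathway. With the pair set against Control GD 4 were called and the list's median was 0.47, *krimp*, *spn-E* and *aub* losing the call (edgeR FDR = 0.094, 0.22 and 0.0504). Without Cbp20/Fsn replicates 1 and 3, 1 of the list was called and its median was 0.26. *piwi*, counted in the small RNA list, had 2.899, 0.751 and 6.37 CPM in the pair (departure 3.20 ± 0.79, edgeR FDR = 0.018, and 0.08 with Control GD), and it was the 1 called gene of the 13 in the cap-binding and small RNA processing list. *Cbp80*, *Ars2*, *pasha*, *drosha* and *Dcr-1* of that list departed by 0.03, -0.02, -0.24, 0.01 and -0.14 and were not called. Eggshell genes, made by follicle cells of the ovary, summed to 5.798, 7.11 and 6.41 CPM in the pair over 15 matched genes, to 6.96 to 8.404 in Cbp20, 7.62 to 8.28 in Fsn, 6.23 to 7.14 in Control GD and 10.6 to 27.4 in Control KK, so that the pair was level with Control GD. In such bulk samples fewer cells of a type and less RNA per cell cannot be told apart.

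Cell cycle genes were also high in Cbp20/Fsn replicates 1 and 3. The 33 genes of the cell cycle and DNA replication list summed to 472, 196 and 683 CPM in Cbp20/Fsn flies, 187, 326 and 287 in Cbp20, 183, 189 and 204 in Fsn, 194, 253 and 263 in Control GD and 228, 221 and 219.6 in Control KK flies. Only replicates 1 and 3 of the pair exceeded all the others. Of the 32 genes tested, 31 had a departure above 0 and the median was 1.38, yet only *stg*, *feo* and *RnrL* were called. That was 9.4% of the list, against 1.66% above the sum over all genes. *stg*, the Cdc25 phosphatase that opens mitosis, had 10.8, 2.08 and 21.3 CPM in the pair and 1.61 to 5.63 elsewhere (departure 2.69 ± 0.79, edgeR FDR = 0.047). *feo*, a midzone microtubule protein, had 4.46, 0.5302 and 7.09 CPM (departure 3.19 ± 0.95, edgeR FDR = 0.049), and *RnrL*, the large ribonucleotide reductase subunit, 9.44, 4.596 and 16.8 CPM (departure 1.93 ± 0.45, edgeR FDR = 0.013). With Control GD, *RnrL* alone of these 3 was called, and *stg* and *feo* were not (edgeR FDR = 0.019, 0.051 and 0.061). In that form the replication genes *Mcm2* and *Mcm5* were called as well, at 1.90 and 1.88 (edgeR FDR = 0.033 and 0.047). Of the 12 fits that left out 1 library, *RnrL* was called in 12, *stg* in 3 and *feo* in 2. Without Cbp20/Fsn replicates 1 and 3 none of the list was called and its median was -0.15, whereas without replicate 2 17 were called. The part of the germline and cell cycle transcripts of 2 libraries in these departures was not tested further.

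The study singled out cell cycle and apoptosis genes by comparing Cbp20/Fsn flies with controls. It also set apart the genes dysregulated in the pair but in neither single knockdown, and reported cell cycle enrichment among them. Neither comparison is the departure. Against Control KK all the genes that its text names for these functions were called here. The log2 changes were 1.69 for *aurA*, 2.39 for *Cdk1*, 1.04 for *lok* and 1.38 for *CycE* (edgeR FDR = 0.0001, 0.044, 0.019 and 0.01). They were 1.21 for *Sid*, 4.27 for *tor* and 8.86 for *Hsp70Bb* (edgeR FDR = 0.0072, 0.0064 and 2.1e-20). For the departure, *Sid* and *Hsp70Bb* were called, the second of them described further on with *w*. *Cdk1* departed by 2.37 ± 1.15, *CycE* by 1.48 ± 0.49, *tor* by 1.61 ± 1.26, *lok* by 1.05 ± 0.41 and *aurA* by 0.67 ± 0.35 (SE, edgeR FDR = 0.26, 0.084, 0.54, 0.15 and 0.3). *aurA*, a mitotic kinase, had 4.87, 2.78 and 6.91 CPM in Cbp20/Fsn flies and no more than 2.56 CPM in the other 4 groups, and *CycE* had 13.9, 4.42 and 17.9 CPM in the pair. Replicate 2 of the pair had 0.398 CPM of *Cdk1* and 5.13 of *lok*, below every control library. *Sid*, a stress-induced DNase, had 3.23, 5.35 and 3.61 CPM in the pair, 1.53, 0.892 and 1.86 in Cbp20, 5.67, 5.24 and 4.84 in Fsn, 10.3, 7.23 and 7.03 in Control GD and 1.64, 1.46 and 2.102 in Control KK. It was low in Cbp20 and Control KK together, and its departure of 2.17 ± 0.39 (edgeR FDR = 0.0019) was -0.06 with Control GD (edgeR FDR = 0.97).

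For most antimicrobial peptide genes Control GD was the group apart. These genes are induced by the Imd and Toll pathways on infection. Of the 17 on the list 14 lay above the sum, with a median departure of 5.65, against 1.66% above and a median of 0.02 over all genes. Control GD was high alone in 11 of the 14, Cbp20 low alone in *BomS2* and *BomS3*, and Fsn and Control KK low together in *AttA*. The list summed to 399.7, 1180.0 and 367 CPM in Cbp20/Fsn flies, 258, 256 and 260.2 in Cbp20, 576, 343 and 350.4 in Fsn, 906, 1231 and 1612 in Control GD and 319, 321 and 363 in Control KK flies. All 3 Control GD libraries were high, and of the knockdown libraries of these groups only Cbp20/Fsn replicate 2 came within their range. Flies with the knockdown of *dlg1* alone, outside the sum, were also high, with 180, 146 and 315 CPM of *DptA*. *DptA* had 1.93, 59.1 and 1.63 CPM in Cbp20/Fsn flies, against 0.525, 1.58 and 1.47 in Cbp20, 5.78, 0.291 and 0.613 in Fsn, 47.8, 87.7 and 241 in Control GD and 0.337, 0.137 and 0.389 in Control KK flies. *DptA* encodes a diptericin, and its departure was 9.71 ± 1.60 (SE, edgeR FDR = 0.00087). *AttC* departed by 8.16 ± 1.30, *Dro* by 7.57 ± 1.47 and *CecA2* by 8.09 ± 2.11 (edgeR FDR = 0.00065, 0.0033 and 0.025), and the infection-induced peptide gene *IBIN* by 8.92 ± 1.96 (edgeR FDR = 0.0084), a call that was lost without Cbp20/Fsn replicate 2. With the pair set against Control GD, so that Control KK entered the sum, 0 of the 17 were called and the median was 0.90. Over all genes 2.24% were called in that form. Without Cbp20/Fsn replicate 2, 7 of the 17 were called above the sum, against 223 of the 10558 genes.

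Peptidoglycan recognition proteins upstream in the same pathways showed 2 forms of this. *PGRP-SB1*, an amidase, averaged 30.3 ± 15.1 CPM in the pair, 9.204 ± 1.67 in Cbp20, 29.97 ± 8.35 in Fsn, 75.8 ± 28.1 in Control GD and 17.2 ± 1.74 in Control KK (SD, n = 3 each), with Control GD apart and a departure of 3.06 ± 0.53 (edgeR FDR = 0.0013). *PGRP-SC2*, an amidase that damps Imd signalling, had 0.186, 6.36 and 0.0903 CPM in the pair and 1.17, 1.34 and 2.58 in Control GD, and 0 to 0.7495 in the rest (departure 8.23 ± 1.84, edgeR FDR = 0.0095). *PGRP-SD* had 16.7, 23.6 and 15.04 CPM in Cbp20/Fsn flies, against 4.77, 5.39 and 4.41 in Cbp20, 25.1, 24.1 and 27.2 in Fsn, 21.8, 24.98 and 25.4 in Control GD and 5.34, 6.52 and 7.82 in Control KK flies. *PGRP-SD* was low in Cbp20 and Control KK together, without overlap, and its departure was 1.84 ± 0.27 (edgeR FDR = 0.0003), against -0.03 with Control GD. These were the 3 called genes of 18 in the Toll and Imd pathway list, against 1.66% above the sum over all genes, and 0 of the 18 were called with Control GD (*PGRP-SB1* 0.92, edgeR FDR = 0.39, and *PGRP-SC2* 3.79, edgeR FDR = 0.57). The call of *PGRP-SC2* was also lost without Cbp20/Fsn replicate 2.

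The genes with Cbp20 low alone included other immune and stress peptides. *TotA*, a stress-induced Turandot peptide, had 113, 148 and 197 CPM in Cbp20/Fsn flies, 45.6, 47.03 and 37.6 in Cbp20, 217, 179 and 136 in Fsn, 144, 209 and 457 in Control GD and 79.3, 118 and 104 in Control KK. Cbp20 flies were the lowest, without overlap, and the pair was level with Fsn. The departure of *TotA* was 2.42 ± 0.46 and that of *TotC* 2.50 ± 0.55 (SE, edgeR FDR = 0.0029 and 0.0089), and neither was called with Control GD. The Toll-regulated peptide gene *BomBc2* averaged 104 ± 21.6 CPM in the pair and 46.7 ± 4.46 in Cbp20 against 122 ± 3.41 in Control GD and 99.8 ± 9.22 in Control KK (SD, n = 3 each), with a departure of 1.36 ± 0.22 (edgeR FDR = 0.00062) that was also called with Control GD. *Sardh*, sarcosine dehydrogenase, averaged 12.6 ± 2.17 CPM in the pair, 0.956 ± 0.3699 in Cbp20, 17.4 ± 2.75 in Fsn, 13.04 ± 0.933 in Control GD and 3.99 ± 0.444 in Control KK, and its departure was 3.36 ± 0.31 (edgeR FDR = 1.9e-06), or 1.65 with Control GD. *BomBc2* and *Sardh* were picked after their values were seen. In the 33 genes of this kind the Cbp20 level was not carried into the pair, and 15 were called with either control.

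The pattern with Cbp20 and Control KK on one side and the pair, Fsn and Control GD on the other, held some of the smallest FDR values. *Osi2* had 59.99, 58.3 and 55.7 CPM in Cbp20/Fsn flies, against 7.27, 8.095 and 6.47 in Cbp20, 110.1, 80.9 and 96.6 in Fsn, 80.7, 83.9 and 85.99 in Control GD and 21.4, 18.1 and 19.7 in Control KK flies. *Osi2* is an Osiris gene, and its departure of 2.79 ± 0.13 (SE, edgeR FDR = 7.9e-11) became 0.70 with Control GD. *CG31036* had 30.7, 32.3 and 27.4 CPM in the pair, 12.1, 13.3 and 12.9 in Cbp20, 29.5, 28.5 and 30.96 in Fsn, 31.9, 32.8 and 32.2 in Control GD and 16.4, 15.1 and 14.6 in Control KK, with a departure of 1.36 ± 0.09 (edgeR FDR = 2.6e-08) and 0.29 with Control GD. The mirror image lay below the sum. *Hsc70-2* had 0.706, 0.442 and 0.587 CPM in Cbp20/Fsn flies, against 10.7, 12.4 and 11.2 in Cbp20, 0.107, 0.09702 and 0.278 in Fsn, 0.0902, 0.261 and 0.486 in Control GD and 18.6, 17.9 and 17.6 in Control KK flies. *Hsc70-2*, a heat shock cognate, departed by -3.37 ± 0.71 (edgeR FDR = 0.0061) and by 2.57 with Control GD (edgeR FDR = 0.0031), a change of side. *CG11700* had 9.89, 9.502 and 9.602 CPM in Cbp20 and 8.52, 7.57 and 8.25 in Control KK and 0.112 to 0.722 in the other 3 groups, and *CG31157* had 5.47, 5.42 and 4.85 and 7.56, 7.52 and 8.601 against 0 to 0.177. Their departures were -4.65 ± 0.45 and -5.29 ± 1.20 (edgeR FDR = 2.6e-06 and 0.01), and 0.06 and 1.05 with Control GD.

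Antennal genes had Fsn and Control KK low together. *Os-C* and *a10*, which encode secreted antennal proteins, and the odorant-binding protein genes *Obp83a* and *Obp83b* were the 4 called of 15 tested in the antenna list, against 1.66% above the sum over all genes. *Obp83a* had 9.998, 8.84 and 14.1 CPM in Cbp20/Fsn flies, against 23.2, 13.9 and 5.83 in Cbp20, 0.571, 0.485 and 0.7796 in Fsn, 29.8, 8.84 and 7.37 in Control GD and 0.626, 0.319 and 0.467 in Control KK flies. *Obp83a* departed by 4.26 ± 1.07, *Os-C* by 4.99 ± 1.33, *a10* by 4.84 ± 1.41 and *Obp83b* by 3.92 ± 1.05 (SE, edgeR FDR = 0.02, 0.031, 0.045 and 0.029). None was called with Control GD, and none of the 4 calls held without Fsn replicate 1 or without Control GD replicate 1. The antenna list as a whole summed to 520.2 to 559 CPM in the pair, 592 to 700.1 in Cbp20, 518 to 613 in Fsn, 478 to 555 in Control GD and 617 to 681 in Control KK flies. Most of this was *Obp56d*, which was not called and averaged 461 CPM in the pair, 512 in Fsn and 608 in Control KK flies.

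Below the sum, 37 genes were high in Cbp20 alone, and the change was not carried into the pair. They included *Cht5*, a chitinase, and the cuticular protein genes *Cpr11A*, *Cpr50Cb*, *Cpr62Bc*, *Cpr76Bd* and *Cpr97Ea*. *Cht5* had 3.75, 3.54 and 4.11 CPM in Cbp20/Fsn flies, against 80.6, 3.22 and 66.5 in Cbp20, 3.71, 4.996 and 4.29 in Fsn, 4.51, 4.32 and 4.26 in Control GD and 4.19, 3.33 and 3.42 in Control KK flies. *Cht5* departed by -3.69 ± 0.95 (SE, edgeR FDR = 0.024). *dyw* had 0.966, 1.06 and 1.31 CPM in Cbp20/Fsn flies, against 54.6, 2.88 and 45.5 in Cbp20, 1.71, 0.825 and 1.002 in Fsn, 1.49, 1.45 and 1.57 in Control GD and 1.203, 1.05 and 1.91 in Control KK flies. *dyw* departed by -4.64 ± 1.09 (edgeR FDR = 0.013). In both genes Cbp20 replicates 1 and 3 stood far above all the others and replicate 2 lay near them. *CG5172* had 248, 23.7 and 185 CPM in Cbp20 flies and 1.82 to 14.4 elsewhere, *CG13722* 74.6, 6.21 and 65.7 and 2.28 to 5.97, and *CG13043* 68.4, 3.94 and 58.4 and 0.724 to 2.69. Their departures were -3.82 ± 1.02, -3.23 ± 0.85 and -4.56 ± 1.25 (edgeR FDR = 0.029, 0.026 and 0.032).

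The 37 genes together summed to 225, 215 and 199.9 CPM in Cbp20/Fsn flies, 1536, 428 and 1291 in Cbp20, 252, 205 and 210.4 in Fsn, 261, 258 and 248 in Control GD and 266, 250.3 and 256 in Control KK flies. Replicate 1 was the highest Cbp20 library in 30 of the 37 genes and replicate 2 in 1. All 37 stayed called without Cbp20 replicate 2, 23 without replicate 1, 27 without replicate 3 and 9 without both 1 and 3, a fit chosen after the data were seen. *l(3)mbn* had 18.03, 0.926 and 10.8 CPM in Cbp20 and at most 0.291 elsewhere (departure -5.81 ± 1.54, edgeR FDR = 0.028). *CG13056* was steadier, with 8.53, 3.12 and 4.85 CPM in Cbp20 (departure -3.62 ± 0.58, edgeR FDR = 0.00063), and so was *CG5246*, with 5.16, 3.53 and 6.71 CPM in Cbp20 (departure -4.06 ± 0.78, edgeR FDR = 0.003). *CG5246* was also raised in Control KK, at 1.44, 1.41 and 1.48 CPM, against 0.135, 0.112 and 0.0748 in Control GD, and it departed by -0.35 with Control GD (edgeR FDR = 0.89). In contrast, *CG34217* had 7.13, 0.206 and 8.62 CPM (departure -3.51 ± 1.03, edgeR FDR = 0.047) and lost the call in 11 of 12 fits that left out 1 library. In those 12 fits *CG13043* was called in 3, *CG5172* in 5, *CG13722* and *l(3)mbn* in 7 each and *Cht5* in 9. *dyw* was called in 11 of them, and *CG13056* and *CG5246* in all 12. Of all 51 tested genes whose symbols mark them as cuticular proteins or chitinases, 12 lay below the sum and 2 above, against 0.938% and 1.66% over all genes, a group picked after the values were seen.

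**Figure D5:**
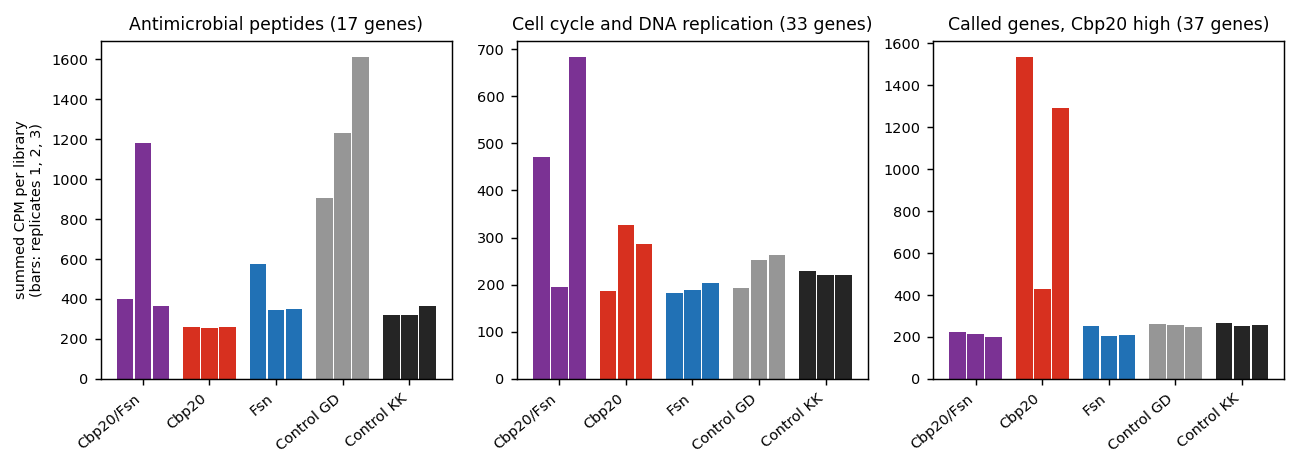
Bars give the summed CPM of 1 library each, in replicate order within a group, for the 17 antimicrobial peptide genes, the 33 cell cycle genes and the 37 called genes with Cbp20 high. The peptides are high in Control GD and in Cbp20/Fsn replicate 2, the cell cycle genes in Cbp20/Fsn replicates 1 and 3, and the third set in Cbp20 replicates 1 and 3.

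Fsn flies alone were high for 10 genes, all called with either control and all without overlap. *CG4650* had 0.0743, 0.133 and 0.135 CPM in Cbp20/Fsn flies, against 0.0438, 0.0686 and 0 in Cbp20, 14.1, 11.6 and 14.3 in Fsn, 0.0902, 0.0746 and 0.112 in Control GD and 0.144, 0.0912 and 0.0778 in Control KK flies. *CG4650* departed by -5.76 ± 1.18 (SE, edgeR FDR = 0.0048), and Fsn was at least 87.8-fold higher than Cbp20, where every library had fewer than 3 counts. *Adh*, alcohol dehydrogenase, averaged 1.42 ± 0.328 CPM in the pair, 0.932 ± 0.212 in Cbp20, 6.199 ± 0.537 in Fsn, 0.739 ± 0.377 in Control GD and 1.05 ± 0.298 in Control KK (SD, n = 3 each), and departed by -2.47 ± 0.40 (edgeR FDR = 0.00068). *CG11426* averaged 16.98 ± 0.983, 16.8 ± 0.816, 66.8 ± 18.7, 18.5 ± 1.97 and 18.3 ± 0.803 CPM in the same groups (departure -1.83 ± 0.23, edgeR FDR = 4.8e-05). *Adh* and *CG11426* were picked after their values were seen. For these genes the pair stayed near both controls.

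Control GD alone was low for 13 genes. *CG34195* had 5.46, 4.73 and 5.37 CPM in Cbp20/Fsn flies, against 7.003, 5.76 and 6.32 in Cbp20, 5.39, 4.996 and 4.57 in Fsn, 1.22, 1.08 and 0.8603 in Control GD and 5.58, 4.88 and 5.799 in Control KK flies. *CG34195* departed by -2.54 ± 0.19 (SE, edgeR FDR = 9.7e-08) and by -0.17 with Control GD. *Hsp83*, the fly Hsp90, averaged 792 ± 27.3 CPM in the pair, 758 ± 31.2 in Cbp20, 832 ± 16.02 in Fsn, 375 ± 20.04 in Control GD and 575 ± 19.02 in Control KK (SD, n = 3 each). Its departure was -1.09 ± 0.08 (edgeR FDR = 1.3e-07), and -0.47 with Control GD. The clock gene *tim*, picked after its values were seen, averaged 967 ± 86.8 CPM in the pair and 377 ± 8.51 in Control GD, and departed by -1.33 ± 0.17 (edgeR FDR = 4.7e-05). Of the 13, 1 was called with either control. *CG43920*, with Control GD high, gave the widest departure of all, 11.99 ± 2.28 (edgeR FDR = 0.0035). It had 2.2995, 5.74 and 11.9 CPM in Control GD and no more than 1.06 in any other library of the 5 groups, while dlg1 flies, outside the sum, had 2.86, 1.29 and 11.9 CPM. Every Cbp20, Fsn and Control KK library was below 3 counts, so that the fitted value is no bound, and the call was lost without Cbp20/Fsn replicate 2.

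*w* and *Hsp70Bb* lay far below the log2 sum with both controls low and every transgenic group high. *w* had 816, 881 and 786 CPM in Cbp20/Fsn flies, against 844, 876 and 813 in Cbp20, 219.8, 202 and 198 in Fsn, 39.5, 38.96 and 39.4 in Control GD and 38.8, 37.2 and 39.3 in Control KK flies. RNAi transgenes of these collections carry a mini-*white* marker, and *w* encodes the eye pigment transporter. *Hsp70Bb* had 271, 273 and 276 CPM in Cbp20/Fsn flies, against 202, 218 and 235 in Cbp20, 78.2, 89.3 and 83.7 in Fsn, 0.812, 0.746 and 0.8603 in Control GD and 0.674, 0.547 and 0.545 in Control KK flies. UAS vectors of the pUAST type also carry *Hsp70* promoter sequence, and *Hsp70Bc*, the other *Hsp70* copy tested, averaged 0.765 CPM in the pair. The departures were -2.42 ± 0.08 for *w* and -6.36 ± 0.14 for *Hsp70Bb* (SE, edgeR FDR = 8.9e-14 and 1.3e-16), the smallest FDR values of all genes. On the log2 scale the sum called for 4436 CPM of *w* and 22692 CPM of *Hsp70Bb*. On the CPM scale it called for 1011 CPM of *w*, against 828 ± 48.6 CPM observed, and 301 CPM of *Hsp70Bb*, against 274 ± 2.48 observed (SD, n = 3 each). The difference from the CPM sum was -183 ± 34.2 CPM for *w* and -27.8 ± 10.3 CPM for *Hsp70Bb* (SE from the 4 groups). The part of transgene reads in these 2 genes was not tested. Across the 274 called genes the sign on the CPM scale was the same in 272, and *Sodh1* and *CG3699* were the exceptions.

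Genes with Cbp20/Fsn low alone numbered 3, all without overlap and called with either control. The odorant-binding protein gene *Obp56h* averaged 6.52 ± 0.7502 CPM in Cbp20/Fsn flies, 10.9 ± 1.18 in Cbp20, 13.2 ± 1.04 in Fsn, 9.31 ± 0.737 in Control GD and 8.78 ± 0.912 in Control KK (SD, n = 3 each), so that each single knockdown averaged above both controls and the pair below them. It departed by -1.24 ± 0.18 (edgeR FDR = 0.00027). The cuticular protein gene *Lcp65Ac* departed by -1.40 ± 0.30 and the receptor gene *mthl9* by -1.07 ± 0.23 (edgeR FDR = 0.0071 and 0.0079). *Act79B*, a muscle actin, was highest in Cbp20/Fsn and Cbp20 flies among the 5 groups, with 395, 405 and 432 CPM in the pair and 243, 347 and 233 in Cbp20 against 53.2 to 201 in the rest, and departed by 1.32 ± 0.34 (edgeR FDR = 0.022). Cbp20/dlg1 flies had 224, 153 and 215 CPM of *Act79B* and dlg1 flies 260.2, 239.6 and 192. The call was lost with Control GD (1.08, edgeR FDR = 0.058) and without Cbp20/Fsn replicate 3, Cbp20 replicate 1 or 3 or Control GD replicate 3. It was the 1 called gene of 9 tested in the flight muscle list, against 1.66% above the sum over all genes.

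Genes of the pathway in which Fsn acts were not called. None of 13 genes of the Fsn, Highwire, Wallenda and JNK list was called, against 2.60% of all genes tested, and their median departure was 0.06. At that share a list this short can be expected to hold few calls or none. *hiw*, the ligase scaffold, departed by -0.14 ± 0.19, *wnd*, its kinase target, by 0.17 ± 0.11 and *puc*, a JNK-induced phosphatase, by 0.22 ± 0.08 (SE, edgeR FDR = 0.76, 0.46 and 0.12). *kay*, the fly Fos, passed the FDR but not the fold limit, with 0.28 ± 0.08 (edgeR FDR = 0.036). The lists of 21 photoreceptor, 16 pan-neuronal, 8 glial, 7 activity-regulated, 11 fat body, 12 hemocyte, 6 eggshell and 4 midgut genes tested also had no call. They are short beside the same 2.60%. A missed threshold leaves smaller departures possible.

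The departure of Cbp20/Fsn was last set against that of the other pair, Cbp20/dlg1, in which *Cbp20* was lowered together with *dlg1*. In the difference of the 2 departures Cbp20 and both controls cancel, so that (Cbp20/Fsn minus Fsn) is compared with (Cbp20/dlg1 minus dlg1). It was called for 385 genes (3.65%), 186 higher for Cbp20/Fsn and 199 lower. *Cyp6a17* differed by 2.86 (edgeR FDR = 1e-07), *sordd2* by 6.68 (edgeR FDR = 3.8e-06) and *CG4650* by -6.43 (edgeR FDR = 0.00038). *sordd2* averaged 64.3 CPM in Cbp20/Fsn and 24.4 in Cbp20/dlg1 flies, with 0.116 in Fsn and 4.22 in dlg1 flies. Much of its difference therefore came from the single knockdowns, with Fsn near the detection floor. For 3 of the genes high in Cbp20 alone the difference was not called, -0.51 for *Cht5*, 0.68 for *dyw* and -0.78 for *CG13722* (edgeR FDR = 0.75, 0.72 and 0.58). Both pairs lacked the high level of Cbp20 flies, with *Cht5* at 3.95, 3.97 and 5.06 CPM in Cbp20/dlg1. *Osi2* differed by -0.59 and *CG34195* by -0.23, so that neither passed the 1 log2 limit. *Cht5*, *dyw*, *CG13722*, *Osi2* and *CG34195* stood apart through Cbp20 or a control, which cancel in this difference. Values near 0 were therefore largely fixed in advance, and no result about the pairs is drawn from the missing calls.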

How the data were processed

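Whole-head RNA was poly(A)-selected, made into stranded libraries and sequenced in up to 3 batches. Per the labels and the study's methods, the authors trimmed reads with Trimmomatic 0.36, aligned them with TopHat2 2.1.1 to fly release 6.08 and deposited HTSeq 0.6.1 counts per gene, 1 column per batch. Counts in all batch columns of a library were summed (13 of the 15 libraries had 3 batches and 2 had 2) and the 5 HTSeq summary rows were left out. Of 17559 gene identifiers, 17253 matched the BDGP6.54 annotation for symbols.

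All 21 libraries of 7 groups entered 1 edgeR 4.0.16 fit (R 4.3.3), so that every group shared the estimate of spread, with filterByExpr, TMM normalisation and quasi-likelihood tests. Simulated counts gave each gene its overall mean in every group, with spread from the fitted trend. The changed genes averaged over 1 CPM and were changed in Cbp20/Fsn alone. All 110 of 110 departures of log2 2 and 90 of 90 of log2 3 were recovered over 10428 genes, with 3 unchanged genes called. Single outlying libraries, groups with almost no reads and differences between the controls were not simulated. The recovery therefore says nothing about calls that rest on them. Log2 group means used an offset of 0.5 CPM. All 15 within-group pairs of libraries differed by more than counting noise (chi-square per gene of 5.12 to 93.9). Replicate numbers did not pair samples (mean correlation of same-numbered deviations -0.02 over 18 pairs, 3 of them over 0.1).

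Genes were named by a rule: the 2 targets; among called genes with a group mean of at least 5 CPM, the 10 largest departures in each direction also called with Control GD, the 4 largest in each direction not so called and the 6 smallest FDR values; up to 4 called genes of each of 20 lists; and genes the study names. Others are marked as picked after their values were seen. Of 321 list genes, 311 matched. The samples, lists and comparisons were chosen with earlier results of these data known. Alternatives covered normalisation, filters, tests, thresholds, batches, the control of the pair and leaving out libraries.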

Additional observations from a re-analysis of the deposited data

Results flagged for a closer look

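The difference between the departures of the 2 pairs was called for 385 of 10558 genes by a test of the difference itself. Among genes named by the rule it was largest on the Cbp20/Fsn side for *CecA2* at 12.97 on the log2 scale (edgeR FDR = 0.0017). Next came *CG43920* at 10.74, *DptA* at 10.6 and *IBIN* at 8.61 (edgeR FDR = 0.0025, 0.00018 and 0.0028). In these genes the single knockdowns differed. *CecA2* averaged 0.0561 CPM in Fsn and 11.7 in dlg1 flies, *DptA* 2.23 and 214, *IBIN* 1.02 and 16.8 and *CG43920* 0.0238 and 5.36. Of the Cbp20/Fsn libraries, replicate 2 alone was high, at 59.1 CPM of *DptA* and 12.9 of *IBIN*. Germline genes differed by 6.51 for *yl*, 5.68 for *dhd*, 5.50 for *osk*, 3.75 for *otu* and 2.99 for *Marf1*, and FBgn0267727, with no symbol, by 5.06, each highest in Cbp20/Fsn replicate 3. *sordd2* differed by 6.68, *CG33177* by 3.20, *Cyp6a17* by 2.86 and *lncRNA:CR44661* by 2.37. Much of the *sordd2* value came from the single knockdowns, at 0.116 CPM in Fsn and 4.22 in dlg1 flies. *CG33177* averaged 14.5 CPM in Cbp20/Fsn and 17.9 in Cbp20/dlg1 flies, with 0.3397 in Fsn and 3.66 in dlg1, and *lncRNA:CR44661* averaged 8.47 and 9.86 CPM in the pairs, with 0.353 in Fsn and 2.04 in dlg1, so that for these 2 genes the single knockdowns set the sign of the difference. *w* differed by 1.11 (edgeR FDR = 3.5e-08). *CG4650* differed by -6.43, the Fsn group being the one apart. No explanation of these differences was tested.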

How the results depend on the processing

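The count of 274 called genes stayed within 1.5 times under RLE normalisation (273), DESeq2 1.42.0 (305), edgeR 4 estimation (248) and no filter on low counts (269). So it did with a likelihood ratio test (327) and the 15 libraries alone (227). With Control GD for the pair 237 genes were called, but only 97 of the 274 were among them on the same side. No genes were called on the CPM scale, where only the sign of the 274 was compared and 272 kept it. The fit with the replicate block called 261 genes, 255 of them shared with the 274, although the numbers did not pair the samples. For the difference between pairs the block called 381, RLE normalisation 382 and the first batch 281. The count moved further with the first sequencing batch only (164), at least 10 counts in every library (169), an FDR of 0.01 (141), no fold threshold (709) and the midpoint of both controls (180), and, as fits chosen after the data were seen, without Cbp20/Fsn replicates 1 and 3 (141) and without Cbp20 replicates 1 and 3 (120). The cause of these shifts was not tested. Leaving out 1 library gave 208 to 319 calls for the departure and 281 to 499 for the difference between pairs, and the genes shared with the 274 numbered 197 to 233.

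Among named genes, setting the pair against Control GD turned the sign of *CG31157* (1.05), *CG11700* (0.060), *Hsc70-2* (2.57), *PGRP-SD* (-0.031), *Os-C* (-5.60), *a10* (-0.084), *Obp83a* (-0.75), *Obp83b* (-0.64) and *Sid* (-0.060), and the midpoint that of *Os-C* (-0.30). Without Cbp20 replicates 1 and 3 the sign turned for *Cht5* (0.24) and *CG34217* (1.12). The cause was not tested beyond the changed control or samples. With libraries of 18831749 counts or more, departures of genes with a group under 3 counts per library, 20 of the 274, are limited by depth.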
